A study of Danio rerio with 9 samples.

Results

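The 7 genes described here are marker genes of iridophores, the silvery pigment cells of fish skin: pnp4a, ltk, alx4a, alx4b, tfec, ednrba and gpnmb. They were chosen by name, and all 7 are among the 30649 named rows of the count tables. RNA was counted in 9 melanomas dissected from zebrafish of the genotype p53-/-; mitfa:BRAFV600E; Na-/-, in which the melanocyte promoter mitfa drives a human oncogene. Na-/- is the nacre mutation, which removes mitfa and with it the melanophores, while iridophores remain in the skin of such fish. The MiniCoopR vector, injected at the zygote stage at 20 ng per µL, returns mitfa to cells that integrate it and carries a further gene with it. That gene was CDK13 R860Q, a mutant of a transcriptional kinase, in 5 tumours and EGFP in the 4 controls, and the groups were otherwise treated alike per the labels. No age of the fish was found in the labels, and tumours given wild-type CDK13 were not analysed here. Whether different tumours were taken from different fish is not stated, and p-values therefore reflect only how far these 9 samples scatter.

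Iridophores arise from the neural crest, as do melanophores and xanthophores, and reflect light from stacked purine platelets made mostly of guanine. In zebrafish the receptor kinase Ltk and the transcription factor Tfec act early in that lineage, and fish without ltk lack iridophores. Purine synthesis supplies the platelets, and pnp4a belongs to that metabolism. Several of these genes are also used elsewhere: ednrba in other pigment cell precursors, gpnmb (in mammals) in melanocytes, macrophages and osteoclasts, and alx4 (in mammals) in mesenchyme of the head and limbs.

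Libraries were made from total RNA after removal of ribosomal RNA, and held 5518472 to 15120176 counted reads per tumour. Values are normalised counts per 1000000 (CPM), with library sizes scaled by edgeR's TMM method. All 7 markers passed the filter on low counts, as did 15169 genes in all. The melanoma label was checked on mitfa, which lay between 63.2 and 228 CPM, and on sox10, a neural crest regulator kept by melanocytes, between 293 and 782 CPM. Since the vector itself returns mitfa, the reads of mitfa are no independent check of that label. The files count the vector's human CDK13 on a separate row, which held 114 to 7239 reads in R860Q and 0 to 5 reads in EGFP tumours. On the first principal component of earlier work on these counts EGFP R162 and EGFP R164 lay away from the other libraries, and values without both are given with the comparison.

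Every one of the 7 markers was detected in all 9 tumours, down to 4 reads of alx4b in EGFP R163. No marker passed the test of a group difference across all genes. By edgeR's quasi-likelihood test, 0 of 7 markers passed at an adjusted p under 0.05, where 0% of the 15169 genes tested passed. Fitted log2 fold changes were above 0 for 7 of 7 markers, compared with 47.2% of all genes, but those of ednrba and gpnmb were small and fell below 0 in some alternatives. DESeq2 passed 0 of 7 markers as well. At an unadjusted p under 0.05 there were 2 markers, ltk and alx4b, and 6.14% of all genes. In none of the 7 did the R860Q and EGFP tumours separate, which 1.43% of all genes did. These counts describe the markers and support neither a change nor its absence. The median log2 fold change was 1.05 over the 7 markers and -0.03 over all genes. Without EGFP R162 and R164 the log2 fold changes were 1.53 for ltk, 0.49 for ednrba, 0.66 for tfec, 1.19 for alx4a, 1.64 for alx4b, 0.42 for pnp4a and 1.29 for gpnmb, and again none passed. Only EGFP R163 and R165 then stood for the controls, and EGFP R163 was the lowest tumour for 5 of 7 markers. For gpnmb these were the lowest controls, at 24.0 and 60.2 CPM.

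**Figure D1:**
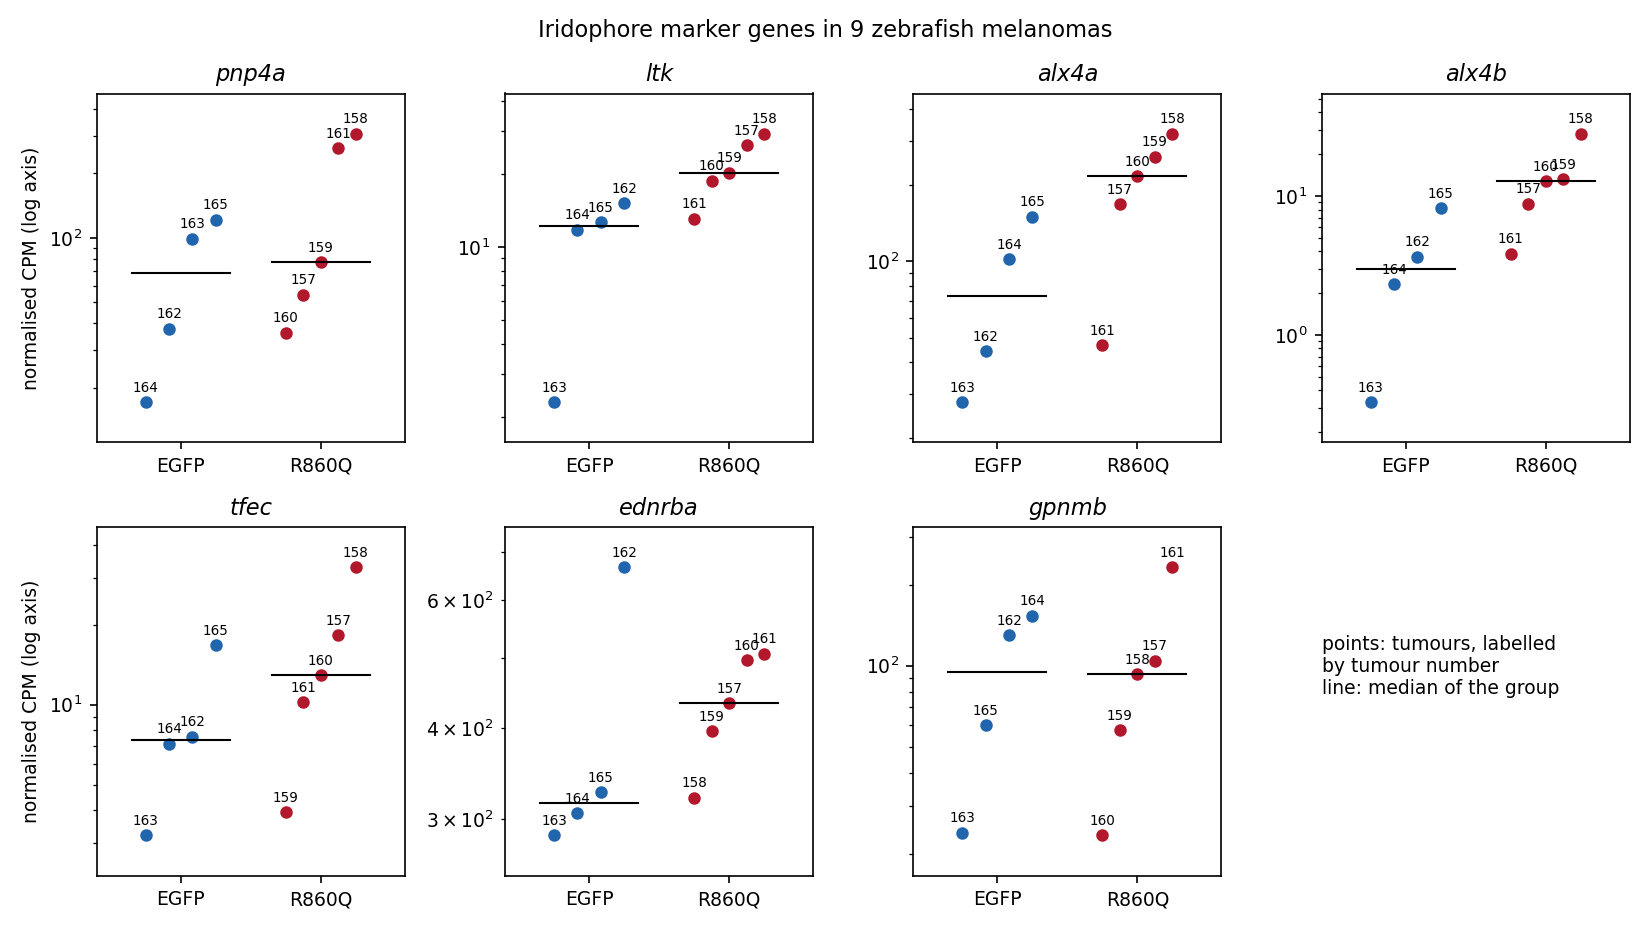
Normalised CPM on a log axis for each of the 7 markers. Points are tumours labelled by number, 4 with EGFP (blue) and 5 with R860Q (red), and lines are group medians; the groups overlap in every panel, and EGFP R163 lies lowest for ltk, alx4a, alx4b, tfec and ednrba.

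The receptor ltk codes for a tyrosine kinase that drives cells into the iridophore lineage. It stood at 26.2, 29.2, 20.3, 18.8 and 13.1 CPM in R860Q tumours R157 to R161, and at 15.2, 2.31, 11.8 and 12.6 CPM in EGFP tumours R162 to R165. The groups overlapped only because EGFP R162 lay above R860Q R161, and EGFP R163 held 28 reads, far under the other controls. R860Q tumours averaged 21.5 ± 6.36 CPM (SD, n = 5) and the controls 10.5 ± 5.63 CPM (SD, n = 4). The log2 fold change was 1.05 ± 0.47 (SE, edgeR adjusted p = 0.805), or 0.71 without EGFP R163. An exact two-sided permutation test of log2 CPM gave p = 0.0238, unadjusted, where the smallest possible p is 0.00794. With a single tumour left out that exact permutation p was between 0.0179 and 0.0714, and it exceeded 0.05 without R860Q R157, R158, R159 or R160 or EGFP R163. Leaving out an R860Q tumour makes the groups equal in size, and this p then takes coarse steps. It is 0.0286 only where the groups separate, and 0.0571 at the next step. The difference of mean log2 CPM was 1.17, 1.13, 1.26 and 1.29 without R860Q R157, R158, R159 and R160, against 1.25 with all tumours. Values over 0.05 there do not show dependence on the R860Q tumour left out.

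The receptor ednrba binds endothelins, and zebrafish that lack it have few iridophores in their stripes. Its levels were 433, 321, 396, 496 and 507 CPM in R860Q R157 to R161, and 666, 285, 305 and 327 CPM in EGFP R162 to R165. The highest and the lowest tumour were both controls, and ednrba was the steadiest of the 7 markers, with a 2.34-fold range over 9 tumours. R860Q tumours averaged 431 ± 76.3 CPM (SD, n = 5) and the controls 396 ± 181 CPM (SD, n = 4), a log2 fold change of 0.12 ± 0.34 (SE, edgeR adjusted p = 0.986). That value was 0.49 without EGFP R162 and -0.002 without EGFP R163.

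The measured ligands of these receptors were mostly at or near the limit of detection. Of the ligands of Ltk, alkal1 and alkal2a (counted under the older names fam150a and fam150ba) had at most 8 and 2 reads in a tumour and were not tested. The other, alkal2b (fam150bb), reached 56.6 CPM in R860Q R161 and at most 18.3 CPM elsewhere, with a log2 fold change of 0.42 ± 1.19 (SE, edgeR adjusted p = 0.986). The endothelin gene edn3b had at most 13 reads in a tumour, and no row was found for edn3a, which was therefore not measured. The endothelin-converting enzymes ece2b and ece2a stood at -0.68 ± 0.35 and 0.39 ± 0.57 (SE). Of 4 tested genes of this list 0 passed in either direction, with a median log2 fold change of 0.20.

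The transcription factor tfec belongs to the MITF family of E-box binding proteins and is needed for iridophores in zebrafish. It stood at 18.3, 33.0, 3.93, 12.9 and 10.2 CPM in R860Q R157 to R161, and at 7.58, 3.21, 7.13 and 16.8 CPM in EGFP R162 to R165. The values of the groups interleave, with R860Q R159 (27 reads) next to the lowest control and EGFP R165 the third highest of all tumours. R860Q tumours averaged 15.7 ± 10.96 CPM (SD, n = 5) and the controls 8.68 ± 5.75 CPM (SD, n = 4), and the log2 fold change was 0.85 ± 0.60 (SE, edgeR adjusted p = 0.934). It was 0.38 without R860Q R158 and 1.41 without EGFP R165.

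The homeobox gene alx4a, a transcription factor gene expressed in zebrafish iridophores, varied widely. It reached 169, 319, 259, 218 and 46.8 CPM in R860Q R157 to R161, and 44.3, 27.9, 102 and 150 CPM in EGFP R162 to R165. In this gene 4 of 5 R860Q tumours lay above all controls, while R860Q R161 lay among the low controls. R860Q tumours averaged 202 ± 103 CPM (SD, n = 5) and the controls 81.1 ± 56.0 CPM (SD, n = 4), with a log2 fold change of 1.32 ± 0.60 (SE, edgeR adjusted p = 0.815). The exact two-sided permutation p was 0.111, and with a single tumour left out it ran from 0.0286 without R860Q R161 to 0.286 without EGFP R163.

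Its paralogue alx4b was counted in fewer reads. It stood at 8.80, 28.1, 13.3, 12.8 and 3.84 CPM in R860Q R157 to R161, and at 3.67, 0.330, 2.33 and 8.20 CPM in EGFP R162 to R165. The order of the tumours resembled that of alx4a: R860Q R158 was highest and EGFP R163 lowest in both. The 4 reads in EGFP R163 give an exact Poisson 95% interval of 0.0898 to 0.844 CPM, which covers counting error only and ends below every other tumour's value. R860Q tumours averaged 13.4 ± 9.07 CPM (SD, n = 5) and the controls 3.63 ± 3.34 CPM (SD, n = 4). The log2 fold change was 1.86 ± 0.78 (SE, edgeR adjusted p = 0.795), the highest of the 7, between 1.39 without R860Q R158 and 2.75 without EGFP R165. The exact two-sided permutation p was 0.0317, unadjusted, and between 0.0179 and 0.125 with a single tumour left out. It stayed under 0.05 only without R860Q R161 or EGFP R165. Without R860Q R157, R158, R159 or R160 it was 0.0571, the coarse step described for ltk. The difference of mean log2 CPM was 1.79 without R860Q R158 and higher without R157, R159 or R160, against 2.12 with all tumours. Those values over 0.05 do not show dependence on the R860Q tumour left out. Without EGFP R163 the difference fell to 1.37, with an exact permutation p of 0.125. Whether any reads match both paralogues was not examined, so their counts may not be wholly separate measurements.

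The enzyme gene pnp4a codes for a purine nucleoside phosphorylase. It stood at 54.3, 306, 76.9, 36.2 and 262 CPM in R860Q R157 to R161, and at 37.7, 99.3, 17.2 and 122 CPM in EGFP R162 to R165. Only R860Q R158 and R161 exceeded the controls, and R860Q R160 lay below 3 of 4 controls. R860Q tumours averaged 147 ± 127 CPM (SD, n = 5) and the controls 68.9 ± 49.5 CPM (SD, n = 4), with a log2 fold change of 1.09 ± 0.76 (SE, edgeR adjusted p = 0.933). The value was 0.65 without R860Q R158. The exact two-sided permutation p was 0.317.

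The membrane glycoprotein gene gpnmb, a relative of the melanosome matrix gene pmela, stood at 104, 92.9, 57.7, 23.4 and 232 CPM in R860Q R157 to R161. In EGFP R162 to R165 it stood at 130, 24.0, 153 and 60.2 CPM. Each group held a tumour near the bottom, R860Q R160 and EGFP R163, and the means differed by less than the spread within groups. R860Q tumours averaged 102 ± 79.3 CPM (SD, n = 5) and the controls 91.9 ± 60.1 CPM (SD, n = 4), a log2 fold change of 0.15 ± 0.66 (SE, edgeR adjusted p = 0.992). The sign turned without R860Q R161 (-0.40), EGFP R163 (-0.16) or EGFP R165 (-0.0036).

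**Figure D2:**
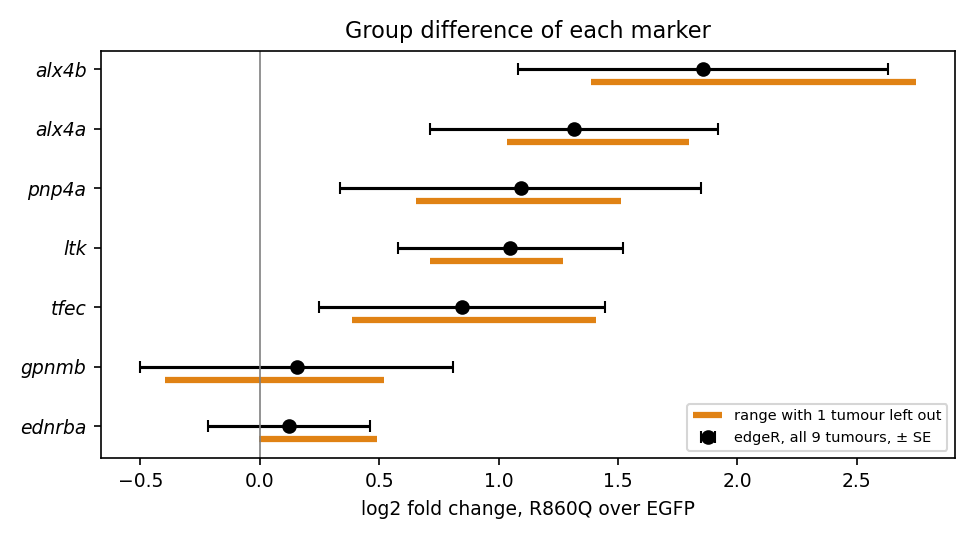
Log2 fold change of each marker, R860Q over EGFP (points, ± SE, edgeR with all 9 tumours), with the range over fits that leave out 1 tumour in orange. The ranges of alx4b, alx4a, pnp4a, ltk and tfec stay above 0, from 0.38 for tfec to 2.75 for alx4b, and those of gpnmb and ednrba reach below 0.

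Most of these genes varied more between tumours than the typical gene. The biological coefficient of variation estimated by edgeR was 0.749 for pnp4a, 0.756 for alx4b and 0.680 for gpnmb, higher than that of 90.7%, 91.0% and 86.9% of the genes tested. For ltk it was 0.499 and for ednrba 0.395, and the median of all genes was 0.429. From the highest to the lowest tumour, alx4b spanned 85.2-fold, pnp4a 17.8-fold, ltk 12.7-fold, alx4a 11.5-fold, tfec 10.3-fold and gpnmb 9.92-fold. R860Q R158 was the highest tumour for 5 of 7 markers (pnp4a, ltk, alx4a, alx4b and tfec), and EGFP R163 was the lowest for 5 (ltk, alx4a, alx4b, tfec and ednrba). In bulk tumours, fewer iridophores, less RNA per iridophore and reads from other cells that use these genes cannot be told apart.

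Some of the 7 markers varied together across tumours. Of 21 pairs, 3 passed at a p adjusted over the 21 pairs (Pearson's r, exact permutation over pairings), and these joined ltk, alx4a and alx4b. For alx4a and alx4b, r was 0.897 (exact permutation p = 4.77e-04, adjusted p = 0.00981) and Spearman's rho 0.950 (exact permutation p = 3.53e-04, adjusted p = 0.00741), and r was 0.851 without EGFP R162 and R163, the tumours farthest from the median of alx4a. For ltk and alx4b, r was 0.918 (exact permutation p = 9.34e-04, adjusted p = 0.00981) and rho 0.883 (exact permutation p = 0.00308, adjusted p = 0.0323), and r fell to 0.689 without R860Q R158 and EGFP R163. For ltk and alx4a, r was 0.774 (exact permutation p = 0.00364, adjusted p = 0.0255) and rho 0.800 (exact permutation p = 0.0138, adjusted p = 0.0968), and r was 0.550 without the same tumours. Without EGFP R163 alone that pair had r of 0.674 (exact permutation p = 0.0754). After subtracting each group's mean, r was 0.842 for alx4a with alx4b, 0.860 for ltk with alx4b and 0.648 for ltk with alx4a (exact permutation p = 0.00496, 0.00276 and 0.0535). These genes share libraries and depth in each tumour. How often pairs of other genes reach such an r in these tumours was not computed, so the count of pairs has no background.

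Around these 3 genes, tfec held an intermediate place. Its r was 0.697 with alx4b (exact permutation p = 0.0350, adjusted p = 0.154; rho 0.600, exact permutation p = 0.0968), and 0.137 without R860Q R158 and EGFP R163. With ltk its r was 0.674 (exact permutation p = 0.0366, adjusted p = 0.154, rho 0.633 with exact permutation p = 0.0760), and 0.121 without the same tumours. For tfec, ltk and alx4b alike, R860Q R158 was the highest and EGFP R163 the lowest tumour. Leaving out both shortens the range of values, so these lower r cannot decide whether the relations hold. Without R860Q R158 alone, r was 0.568 with alx4b and 0.605 with ltk (exact permutation p = 0.140 and 0.0974). With alx4a its r was 0.556 (exact permutation p = 0.123, adjusted p = 0.431). R860Q R159 departed from the pattern, being second of 9 tumours for alx4a and alx4b and eighth for tfec. Without it alone, r of tfec was 0.961 with alx4b, 0.874 with ltk and 0.874 with alx4a. That tumour was picked because it departs from the pattern, and these are the highest r of any single tumour left out. The lowest came without EGFP R163 alone, at 0.504 with alx4b, 0.472 with ltk and 0.333 with alx4a. None of the 15 pairs that involve pnp4a, ednrba or gpnmb passed, with r from -0.160 to 0.386 and the smallest exact permutation p at 0.320 (adjusted p = 0.844). The enzyme pnp4a, a widely used iridophore marker, had r of 0.0369 with ltk and 0.0483 with alx4a (exact permutation p = 0.924 and 0.899). Some tumours ranked differently: R860Q R161 was second for pnp4a and seventh for alx4a, and EGFP R163 was the fourth highest for pnp4a and last for ltk, alx4a and alx4b. R860Q R158, however, was the highest for pnp4a, ltk, alx4a and alx4b alike. Over 9 tumours, an r near 0 does not show that a relation is absent. Whether the correlations of different pairs differ was not tested.

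**Figure D3:**
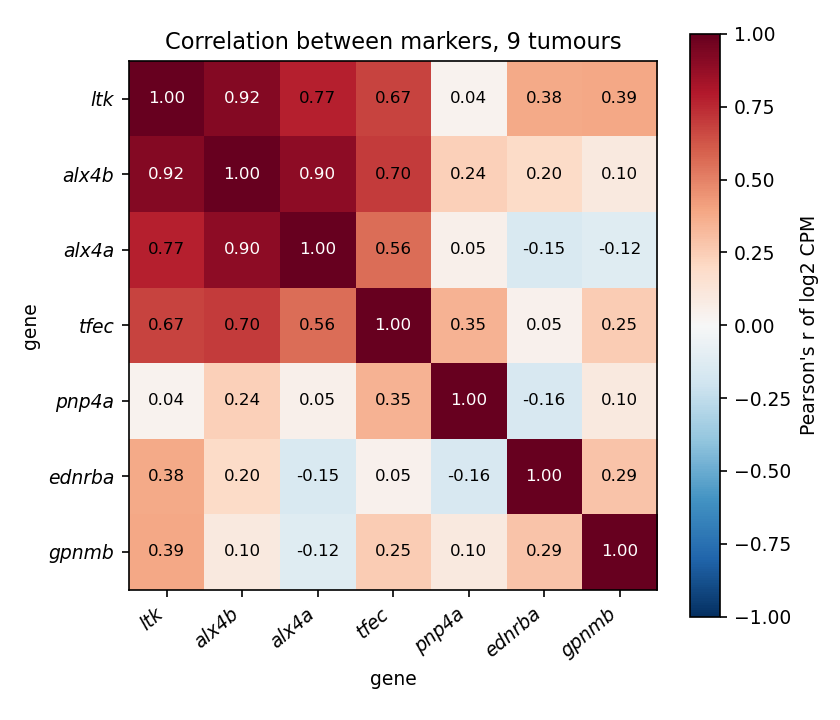
Pearson's r of log2 CPM over 9 tumours for each pair of markers, ordered with ltk, alx4b, alx4a and tfec first. The block of ltk, alx4b and alx4a holds r of 0.774 to 0.918, and no pair with pnp4a, ednrba or gpnmb exceeds 0.386.

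Genes with the most similar pattern over the 9 tumours were looked up among 12500 candidates with a mean of at least 1 CPM, as a description without a test. For alx4b they were cacna2d1a, a calcium channel subunit (r = 0.951), akap12a, a kinase anchoring protein (0.936), and ankzf1 (0.926), and for ltk they were ankzf1 (0.920), alx4b itself (0.918) and mbd6 (0.911). For alx4a they were arpp21 (0.949), sytl2a (0.932) and hspbap1 (0.918), and for tfec anxa13l, an annexin (0.880), ablim1b (0.873) and capn7, a calpain (0.849). Those of pnp4a were gnaq, a G protein subunit (0.973), vps39, which acts in vesicle fusion at lysosomes (0.948), and neo1b (0.948). Those of gpnmb were nagk, a sugar kinase (0.968), rab38b, a GTPase of melanosome traffic (0.940), and osbpl3b (0.922). Those of ednrba were snu13b (0.972), mrpl34 (0.962) and cox8b (0.956). Such values rest on only 9 tumours that share their libraries. Among the candidates, 4 exceeded 0.9 with ltk, 5 with alx4a, 9 with alx4b, 14 with pnp4a, 10 with gpnmb, 39 with ednrba and 0 with tfec.

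Purine synthesis, which feeds the reflecting platelets, held no gene that passed. Of 26 tested genes 15 had a log2 fold change above 0 and 11 below, with a median of 0.05. The gene with the smallest p was paics, an enzyme of the purine ring. It stood at 444, 776, 556, 477 and 407 CPM in R860Q R157 to R161 and at 76.6, 494, 209 and 247 CPM in EGFP R162 to R165. EGFP R163 lay inside the R860Q range and the other controls below it. Its log2 fold change was 1.05 ± 0.48 (SE, edgeR adjusted p = 0.813). Next by p were the folate enzymes mthfd2 (-0.59 ± 0.32 SE) and mthfd1b (0.60 ± 0.35 SE).

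Family relatives of the markers were compared as well. Of 17 relatives 11 were tested, 5 had a value above 0 and 6 below, the median log2 fold change was -0.04, and 0 passed. The MITF relative tfeb stood at -0.42 ± 0.26 (SE) and the endothelin receptor ednrbb at 1.14 ± 0.88 (SE). The nearest paralogue of pnp4a by name, pnp4b, had at most 2 reads in a tumour, while pnp5a lay between 61.7 and 368 CPM. The kinase alk, a relative of ltk, had at most 34 reads.

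Among 16 other genes linked with iridophores or pigment pattern, 13 were tested, 9 had a value above 0 and 4 below, the median log2 fold change was 0.09, and 0 passed. Those with the smallest p were cyb5a, a cytochrome (-0.90 ± 0.41 SE), tjp1a, a tight junction protein whose loss alters iridophores in zebrafish (0.66 ± 0.34 SE), and defbl1, a beta-defensin (1.17 ± 0.64 SE). Their edgeR adjusted p were 0.809, 0.863 and 0.893. In akap12a R860Q R158 was highest (257 CPM) and EGFP R163 lowest (14.3 CPM). Its pattern was among those closest to alx4b, so sharing these extremes is not a separate observation.

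Markers of other cells that a dissected tumour could hold were set beside these genes. Of 15 tested melanophore markers 2 had a value above 0 and 13 below (median -0.40), and their summed level ran from 3267 to 16239 CPM in R860Q and from 6998 to 13693 CPM in EGFP tumours. Named by smallest p were mchr2 (-2.25 ± 0.69 SE), kita (-0.90 ± 0.50) and mitfa (-0.40 ± 0.36). Of 9 tested xanthophore markers 8 had a value above 0 (median 1.84), with 184 to 1215 CPM in R860Q and 304 to 1036 CPM in EGFP tumours. Named by smallest p were slc22a7a (3.59 ± 1.41 SE), scarb1 (2.22 ± 0.95) and pax7a (2.16 ± 1.0), and aox5 had 0 reads in EGFP R162. The highest xanthophore score was that of R860Q R161 (2.40), which was also the highest tumour for gpnmb but seventh for alx4a. None of the lists of other cell types held a gene that passed edgeR's test.

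Of 22 tested macrophage markers 18 were below 0 (median -0.67), with 834 to 2105 CPM in R860Q and 851 to 3661 CPM in EGFP tumours. Named by smallest p were lgals3bpb (-2.05 ± 0.45 SE), grn2 (-2.06 ± 0.74) and spi1a (-0.94 ± 0.40). Of 16 fibroblast markers 13 were below 0 (median -0.87), with 228 to 640 and 353 to 1331 CPM, led by fn1b (1.04 ± 0.32), lum (-1.37 ± 0.54) and dcn (-1.45 ± 0.60). The 1331 CPM were those of EGFP R165, while EGFP R162 to R164 held 376, 353 and 401 CPM, inside the R860Q range. EGFP R165 was also the highest of all tumours for lum (34.3 CPM) and dcn (52.1 CPM), and the lowest for fn1b (5.79 CPM). The 17 tested skeletal muscle markers all had a value above 0 (median 2.59), with 26.4 to 5013 and 9.31 to 1206 CPM, led by mybphb (3.50 ± 1.82), desma (3.65 ± 1.98) and ttn.2 (2.59 ± 1.47); mybphb, myhz1.1, tpma, atp2a1, pvalb1 and pvalb2 had 0 reads in at least 1 tumour. The tumours rich in muscle RNA were R860Q R158, R159 and R160 and EGFP R162, with scores of 1.68, 4.72, 4.15 and 2.86 against -3.20 to -1.71 in the rest. The same R860Q tumours were the 3 highest for alx4a and alx4b. EGFP R162, rich in muscle RNA too, was eighth and seventh for these genes, and R860Q R157, poor in it, was the fourth highest for both. With the muscle score as a covariate the log2 fold changes were 0.99 for alx4a, 1.40 for alx4b, 0.91 for ltk, 0.04 for ednrba, 1.53 for pnp4a, 1.0 for tfec and 0.20 for gpnmb, and none passed. The unadjusted edgeR p rose for alx4a, alx4b, ltk and ednrba, from 0.0523, 0.0369, 0.0480 and 0.725 to 0.248, 0.156, 0.103 and 0.919. It fell for pnp4a, tfec and gpnmb, from 0.178, 0.187 and 0.819 to 0.0875, 0.181 and 0.759. With the covariate the SE went from 0.603 to 0.801 for alx4a, 0.776 to 0.908 for alx4b and 0.470 to 0.508 for ltk. The SE went from 0.755 to 0.807 for pnp4a, 0.600 to 0.694 for tfec and 0.657 to 0.638 for gpnmb, and stayed at 0.34 for ednrba. Muscle-rich tumours were unevenly split between the groups, so group and muscle score cannot be fully told apart in these fits.

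Of 12 neural crest and glia markers 10 were below 0 (median -0.64), with 509 to 1281 CPM in R860Q and 643 to 1727 CPM in EGFP tumours, led by erbb3a (-1.29 ± 0.42 SE), s100b (-7.06 ± 2.29) and sox9b (-2.19 ± 0.94). The value of s100b rests on EGFP R162, at 646 CPM, while the other controls held 0.165, 1.02 and 1.42 CPM and R860Q tumours 0.104 to 4.62 CPM. For sox9b EGFP R164 held 29.3 CPM and the other 8 tumours 0.291 to 5.26 CPM. Endothelial markers summed to 37.6 to 68.3 and 34.0 to 103 CPM (median -0.16, 5 of 9 below 0; fli1b -0.90 ± 0.51, kdr 0.47 ± 0.36 and tie1 -0.52 ± 0.43). Keratinocyte markers summed to 284 to 821 and 145 to 1847 CPM (median -0.50, 8 of 8 below 0), led by krt15 (-1.70 ± 0.74), tp63 (-0.82 ± 0.41) and krt5 (-1.28 ± 0.94). The highest keratinocyte score was that of EGFP R165 (1.92), and the lowest that of EGFP R162 (-1.45). The group medians of this score were close, at 0.02 in R860Q and -0.03 in EGFP tumours. Over 56 relations between the 7 markers and the scores of these 8 lists, 0 had an exact permutation p under 0.05 by Pearson's r or by Spearman's rho. For alx4b and skeletal muscle markers r was 0.568 (exact permutation p = 0.105, adjusted p = 0.897; rho 0.683, exact permutation p = 0.0503; r = 0.446 without R860Q R159 and R160). For alx4a and melanophore markers r was -0.656 (exact permutation p = 0.0585, adjusted p = 0.897; rho -0.650, exact permutation p = 0.0666; r = -0.544 without the same tumours). The smallest Pearson p was that of gpnmb with xanthophore markers (r = 0.658, exact permutation p = 0.0513, adjusted p = 0.897; rho 0.517, exact permutation p = 0.162; r = 0.654 without R860Q R159 and R161). For gpnmb and macrophage markers r was 0.587 (exact permutation p = 0.1003, adjusted p = 0.897; rho 0.683, exact permutation p = 0.0503; r = 0.781 without R860Q R161 and EGFP R165). For gpnmb and melanophore markers r was 0.595 (exact permutation p = 0.0884, adjusted p = 0.897, rho 0.633 with exact permutation p = 0.0760). Without R860Q R159 and R160 this r was 0.355. The relations named here are those with the smallest Pearson p of the 56. The part of these cells in the markers' levels was not tested beyond these values.

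**Figure D4:**
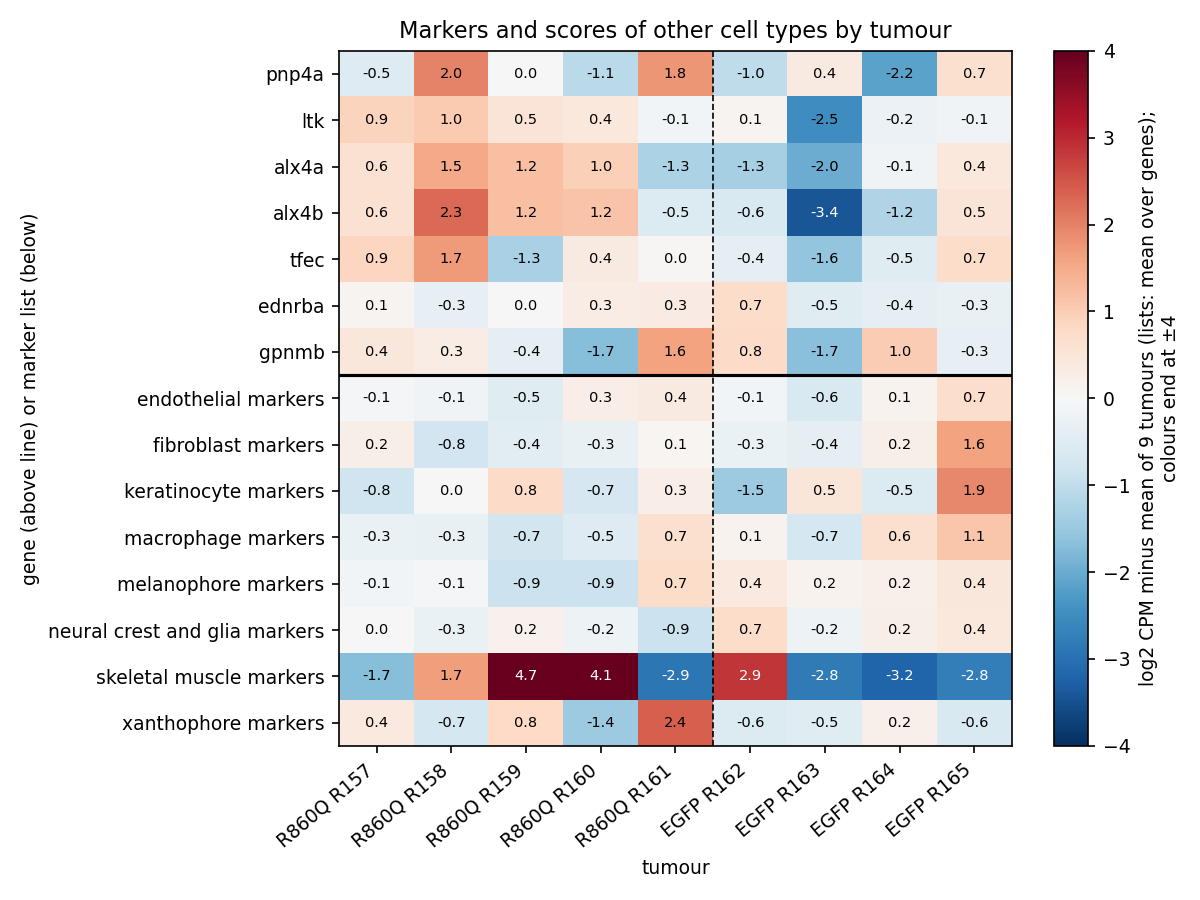
Log2 CPM of each marker minus its mean over the 9 tumours (above the line), and the score of each marker list of other cell types, the mean of such values over its genes (below the line). R860Q tumours are left of the dashed line; R860Q R158 is high for pnp4a, ltk, alx4a, alx4b and tfec, and the muscle row is high in EGFP R162 and in 3 R860Q tumours (R158, R159, R160).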

How the data were processed

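Total RNA of 9 tumours, depleted of ribosomal RNA, was randomly primed and sequenced as read pairs, per the labels' protocols. Bowtie, HTSeq and danRer10 (GRCz10) are named, without versions, in the submitters' processing notes. No strand setting was found, so overlapping and antisense genes may not be separated. The deposited files hold whole-number read counts by gene symbol, not normalized. Levels of different genes were not compared, since no transcript lengths were used. Older symbols were matched through RefSeq's table (GRCz12tu), for names only.

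In R 4.3.3, edgeR 4.0.16 (filterByExpr with minimum count 10 and minimum total 15, TMM, robust quasi-likelihood test, group as the only term) was fitted to all genes, with Benjamini-Hochberg adjustment at 0.05, and was checked on simulated counts. Log2 CPM used a prior count of 2. Alternatives were other scalings, filters and covariates, DESeq2 1.42.0, limma 3.58.1 voom, and tumours left out. The members and gene lists were chosen with earlier results of these data known; relations with other cell types' scores were added after seeing the data. Named genes were the 7 markers, the 3 genes of each list with the smallest p and the 3 most similar in pattern to each marker. A gene that this rule names is not reported here. Others with values (akap12a by tumour, pnp5a, pnp4b, alk, aox5 and the ligands) were chosen after their values were seen. A planned promoter motif search was not run. Reads had no molecular identifiers, so intervals cover counting error only.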

Additional observations from a re-analysis of the deposited data

Results flagged for a closer look

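In EGFP tumours ednrba reached 666 CPM in EGFP R162, while the other 3 controls lay between 285 and 327 CPM. The gap to the nearest control was 0.890 of the group's whole range, above the 95% critical value of Dixon's test for 4 samples. It was the 1 such case in 14 groups examined (7 markers in each vector group), and chance gives about 1 in 20 groups. EGFP R162 had the lowest TMM factor of the 9 libraries (0.650). Before that scaling, EGFP R162 held 2723 reads of ednrba among 6294651 reads of tested genes. EGFP R163 to R165 held 3455, 2099 and 5976 among 11173583, 5492668 and 15011102. Dixon's test was run only on CPM scaled by TMM, and the part of the TMM factor in the flagged value was not tested.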

How the results depend on the processing

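The count of markers that passed stayed at 0 of 7 in all 19 alternatives, with adjusted p of 0.392 or more. Over all genes, edgeR passed 0, DESeq2 passed 68 (20 higher and 48 lower, none a marker), and edgeR passed 1 (5_8S_rRNA) without EGFP R162 and R164; with a single tumour left out the count ran from 0 to 1. In the wider lists DESeq2 passed 1 gene, lgals3bpb, and the count ran from 0 to 1 with a tumour left out (grn1 without EGFP R165). With all tumours grn1 did not pass the filter on low counts, so it was not tested there. The cause of the other differences was not tested. The log2 fold changes kept their sign for pnp4a, ltk, alx4a, alx4b and tfec in all alternatives. That of gpnmb was -0.18 by voom and 1.29 without EGFP R162 and R164. With a single tumour left out it ran from -0.40 to 0.52, and that of ednrba from -0.0020 to 0.49. The difference of mean log2 CPM of gpnmb ran from -0.43 to 0.54.

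With group means subtracted, r became -0.282 for pnp4a with ltk, -0.222 for pnp4a with alx4a, -0.0219 for pnp4a with alx4b and -0.0551 for tfec with ednrba. With a tumour left out, r ran across 0 for pnp4a with ltk (-0.220 to 0.293), alx4a (-0.269 to 0.285), alx4b (-0.0591 to 0.493), ednrba (-0.494 to 0.0437) and gpnmb (-0.213 to 0.390); for ednrba with ltk (-0.0555 to 0.554), alx4a (-0.588 to 0.168), alx4b (-0.261 to 0.415) and tfec (-0.276 to 0.293); and for gpnmb with ltk (-0.289 to 0.573), alx4a (-0.671 to 0.0945), alx4b (-0.603 to 0.302) and tfec (-0.0785 to 0.397). Among ltk, alx4a and alx4b it stayed between 0.674 and 0.933.

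No paired analysis was possible because no tumour number occurs in both groups. Depth limits alx4b most, with 4 reads in EGFP R163, while each of the other markers had 27 reads or more in every tumour.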
